A study of Mus musculus with 47 samples.

Results

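Gene expression in hippocampus was compared with that in brainstem of wild-type mice on standard chow. The comparison rested on 11 of the 47 libraries of the series, 6 of hippocampus and 5 of brainstem, which were picked by their region, genotype and diet labels and by no measured value. All mice were male, of C57BL/6 background and 12 months old, and these WT_SD mice had received the standard diet from the age of 5 weeks. They came from a wild-type colony bred in parallel to homozygous mice that carried a human transgene under the neuronal Thy1 promoter. The other groups of the series were wild-type mice on high-fat diet (WT_HFD) and transgenic mice on either diet (TG_SD and TG_HFD), and they served here only to ask whether the same region difference was present in other animals. The authors took the brainstem as the medulla with the uppermost cord, and the hippocampus as the whole structure with every subfield. Poly(A) RNA was sequenced, so each value is an average over all cells of a piece of tissue. Region and its dissection cannot be told apart in this design.

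The hippocampus belongs to the telencephalon. Its output is carried by glutamatergic pyramidal cells of the CA fields and by granule cells of the dentate gyrus, whose dendrites bear large numbers of spines, and its inhibition comes from local GABA neurons. The medulla is hindbrain. It holds motor and sensory nuclei of the cranial nerves, glycinergic and GABAergic interneurons, noradrenergic and serotonergic cell groups, and long myelinated tracts that pass between brain and spinal cord. Transcription factors that pattern the embryo along its axis stay active in many adult neurons and glia, so a region can often be recognized from them.

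Counts per library lay between 10020784 and 14681252 in brainstem and between 13192398 and 15592046 in hippocampus. Levels below are CPM, counts scaled to a common library size after TMM normalization, values with an error are mean ± SD over the 6 hippocampus or 5 brainstem libraries, fold changes are log2 of hippocampus over brainstem ± standard error, and positive values mean higher in hippocampus. A pair such as 32.1 against 0.183 CPM is mean CPM in hippocampus and then in brainstem, and a signed number after it is the log2 fold change. The first principal component over the 500 most variable genes held 95.3% of the variance and parted the regions, and libraries of different regions correlated at 0.803 to 0.846 against at least 0.972 within a region. The second component held 1.23%, and on it brainstem replicates 1 and 7 (8.90 and 8.33) stood apart from replicates 4, 6 and 8 (-5.01 to -7.15). Those 2 libraries carried more choroid plexus RNA, as described below. Reads on the human transgene numbered 6 to 41 in the 11 libraries, against 36959 to 72863 in libraries of TG mice. Every pair of libraries of a region differed by more than counting noise, so none was a repeat of another. Both regions were dissected from the mice of a group, so that hippocampus and brainstem libraries share mice, and the labels do not say which libraries belong to 1 mouse.

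A total of 14024 genes had a mean count of at least 50 in either region. Of these, 12670 reached the minimum in both regions, 602 in hippocampus only and 752 in brainstem only. In edgeR's quasi-likelihood test, genes were called where the adjusted p did not exceed 0.05 and the log2 fold change was 0.3 or more in either direction, and 8464 genes (60.4% of those tested) differed between the regions. Of the 8464 called genes, 4111 (29.3% of those tested) were higher in hippocampus and 4353 (31.0%) higher in brainstem. Genes that missed either threshold are described below as not called. At 2-fold or more the counts were 1419 (10.1%) and 1381 (9.85%), and at 8-fold or more 215 (1.53%) and 145 (1.03%). The CPM of the 2 regions did not overlap for 7527 genes (53.7%). Among the 12670 genes that reached the minimum in both regions, 57.2% were called, 28.4% being higher in hippocampus and 28.8% in brainstem, and these are the shares against which counts of gene groups are set below. A gene that reached the minimum in only 1 region was favoured by that choice to be higher there, so such genes are given by their values and not counted. Members of a gene group that reached it in both are described as measured in both regions. The median log2 fold change of all tested genes was -0.02 and the median of its absolute value 0.42.

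**Figure D1:**
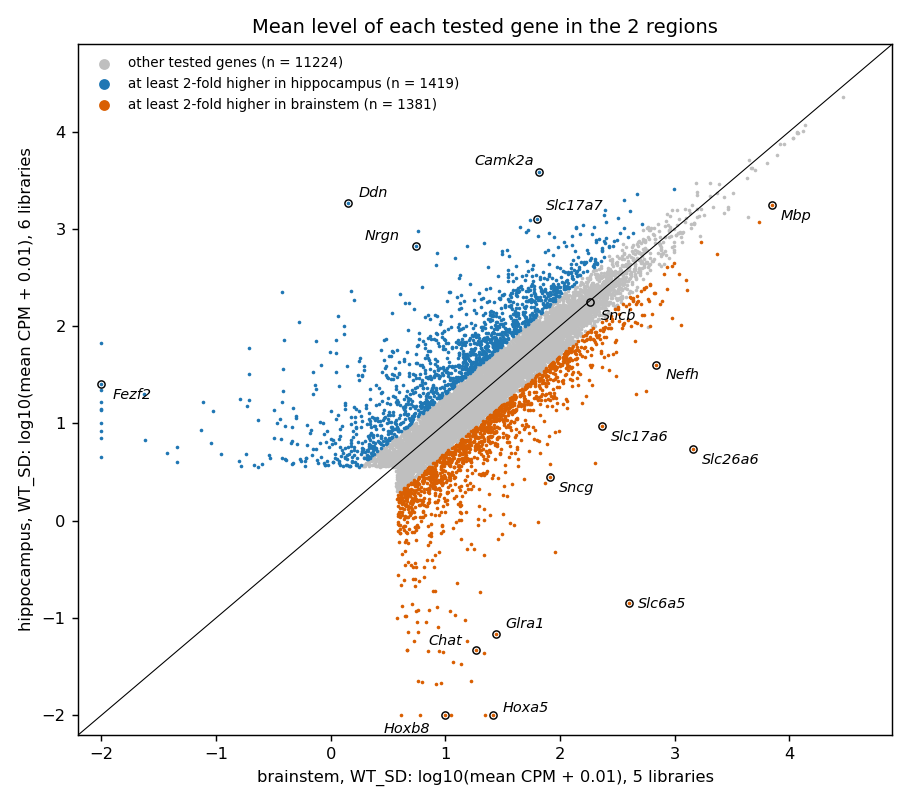
Each point is a tested gene, placed by the log10 of its mean CPM plus 0.01 in brainstem (horizontal axis, 5 libraries) and in hippocampus (vertical axis, 6 libraries), with the line of equal levels. Blue marks the 1419 genes at least 2-fold higher in hippocampus, orange the 1381 at least 2-fold higher in brainstem, and grey the rest. Genes with no reads in a region lie on the left or lower edge, such as Fezf2, Hoxa5 and Hoxb8.

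Transcription factors that mark position along the neural axis were among the largest differences. Fezf2 (ENSMUSG00000021743), a factor of early forebrain and of deep-layer cortical neurons, had 23 to 27.5 CPM in the hippocampus libraries (median 24.6) and not 1 read in the brainstem libraries, so that its level in hippocampus was at least 553-fold higher than a floor of 3 reads over the 5 brainstem libraries. Dlx1, which directs forebrain interneurons, and Emx2 and Nr2e1, which pattern the cortical sheet and keep its stem cells, had 21.8, 13.9 and 13.8 CPM in hippocampus and 0 reads in brainstem, at least 480.0-fold, at least 306-fold and at least 301-fold above that floor. Tbr1, a factor of cortical glutamatergic neurons, was present at 32.1 against 0.183 CPM.

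Factors of hippocampal excitatory neurons that were also measurable in brainstem differed less steeply. Neurod6, a bHLH factor of maturing pyramidal cells, had 204 to 239.8 CPM in the hippocampus libraries (median 210.4) against 3.22, 5.06, 3.82, 4.78 and 3.05 CPM in brainstem replicates 1, 4, 6, 7 and 8, the order used for all brainstem values below. Its regions were 53.5-fold apart (log2 fold change 5.74 ± 0.108, adjusted p = 2.95e-17) and did not come near each other. Zbtb18, a repressor needed for cortical neuron maturation, was at 609.8 against 78.7 CPM (2.95). Of the 31 tested members of a list of forebrain factors, 15 reached the minimum in both regions, and of those 13 were higher in hippocampus and 1 in brainstem, with a median of 1.68. Cux2 ran the other way (13.2 against 23 CPM, -0.80), and Id2, a dominant-negative bHLH protein of many cell types, was not called at 69.5 against 71.2 CPM.

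Hox genes, which encode position along hindbrain and spinal cord, gave the mirror image. All 39 Hox genes were looked up and 9 reached the minimum, each through brainstem. Hoxa5 (ENSMUSG00000038253) had 20.6, 6.04, 31.4, 32.1 and 40.4 CPM in brainstem and no read in hippocampus, at least 757-fold over the floor of 3 reads. Hoxb5 had 19.6, 6.13, 24.4, 29.3 and 31.8 CPM and also no read in hippocampus, at least 641-fold over the floor. Libraries of brainstem differed widely in these genes. Hoxb8, whose expression begins further back on the axis than that of Hoxa2 or Hoxa5, had 2.93, 0, 13.7, 8.82 and 24.3 CPM, from 0 in replicate 4 to the highest value in replicate 8. Hoxa2, the Hox gene with the most anterior limit, varied little, at 3.81, 4.08, 3.04, 5.12 and 4.43 CPM. Hoxb8 was called in the test over all 5 brainstem libraries (adjusted p = 0.0279), and not without brainstem replicate 6, 7 or 8 (adjusted p 0.0711, 0.0613 and 0.0504). The replicate low in Hoxb8 was also the lowest in Hoxa5, Hoxb5 and Hoxb6 (5.17, 0.327, 9.69, 6.39 and 9.69 CPM), while Hoxa2 there was close to the other libraries. Summed over all Hox genes, brainstem libraries reached 94.2, 39.6, 144.2, 141.1 and 194.5 CPM and hippocampus libraries 0.137 to 0.456.

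Other hindbrain and spinal factors followed the Hox genes in direction. Irx2 and Pax8 were present at 9.16 and 8.36 CPM in brainstem against 1 read each in hippocampus, a ratio of 769 (95% exact interval 137 to 30400) and a ratio of 714 (95% exact interval 128 to 28300). Lmx1b, which serotonergic neurons require, was at 0.11 against 5.74 CPM, and Meis1 and Pbx3, partners of HOX proteins on DNA, were at 1.01 against 21.8 CPM and 5.42 against 42.5 CPM. Of the 30 tested members of this list, 9 reached the minimum in both regions, of which 5 were higher in brainstem and 1 in hippocampus. That 1 was Bhlhe22 (70.9 against 6.44 CPM), which forebrain projection neurons also use.

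The sequence before the transcription start is shown for 5 genes of opposite region pattern, since the factors just described act on such stretches. They are the 250 bases before the first start listed by RefSeq (GRCm38.p6), written 5′ to 3′ on the gene's own strand, with matches to 2 motifs in capitals. The motifs were CAGATG, an E-box that NEUROD proteins bind, and TGATTNAT, a site that HOX and PBX proteins bind together, both searched on either strand. Slc17a7 and Slc17a6 are the 2 main vesicular glutamate transporters, Nrgn is a postsynaptic gene of forebrain spines, Slc6a5 is the neuronal glycine transporter, and Hoxa2 is the Hox gene described above.
Slc17a7, chr7:45163671-45163920, plus strand: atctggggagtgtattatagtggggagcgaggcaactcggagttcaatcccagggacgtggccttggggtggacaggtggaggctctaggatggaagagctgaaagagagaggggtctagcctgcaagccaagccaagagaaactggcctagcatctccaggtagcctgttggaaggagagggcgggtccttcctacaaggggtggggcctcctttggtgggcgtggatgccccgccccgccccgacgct
Slc17a6, chr7:51621580-51621829, plus strand: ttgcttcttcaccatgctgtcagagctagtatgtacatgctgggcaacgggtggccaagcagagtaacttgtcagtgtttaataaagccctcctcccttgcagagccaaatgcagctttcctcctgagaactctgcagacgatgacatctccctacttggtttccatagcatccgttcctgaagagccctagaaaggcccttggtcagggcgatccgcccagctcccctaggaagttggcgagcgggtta
Nrgn, chr9:37552746-37552995, minus strand: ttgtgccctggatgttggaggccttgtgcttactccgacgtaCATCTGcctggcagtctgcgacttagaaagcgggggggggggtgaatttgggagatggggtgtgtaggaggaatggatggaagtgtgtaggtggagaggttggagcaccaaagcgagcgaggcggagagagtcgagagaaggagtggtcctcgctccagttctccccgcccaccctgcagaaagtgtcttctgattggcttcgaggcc
Slc6a5, chr7:49910049-49910298, plus strand: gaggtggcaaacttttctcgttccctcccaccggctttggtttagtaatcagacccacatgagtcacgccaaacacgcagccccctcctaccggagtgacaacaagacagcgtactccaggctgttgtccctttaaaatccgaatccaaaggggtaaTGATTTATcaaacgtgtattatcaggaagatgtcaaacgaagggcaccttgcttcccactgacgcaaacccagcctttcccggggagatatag
Hoxa2, chr6:52164832-52165081, minus strand: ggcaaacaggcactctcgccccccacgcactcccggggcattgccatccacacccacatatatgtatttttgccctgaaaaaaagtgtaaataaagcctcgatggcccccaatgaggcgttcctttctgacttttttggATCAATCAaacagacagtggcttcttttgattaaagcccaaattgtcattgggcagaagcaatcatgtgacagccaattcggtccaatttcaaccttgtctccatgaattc
The match of Nrgn began 208 bases before the start and was of the E-box on the opposite strand. That of Slc6a5 began 93 bases before the start on the gene's own strand, and that of Hoxa2 111 bases before it on the opposite strand. Slc17a7 and Slc17a6 held no match of either motif in this window. A promoter was listed for 9816 of the 14024 tested genes. For the shares that follow, a gene counted where the window of any of its listed starts held the motif, so genes with several starts could match more easily. CAGATG was found in 11.9% of them, in 14.6% of the 1033 genes with a promoter among those at least 2-fold higher in hippocampus, and in 15.6% of the 1037 among those at least 2-fold higher in brainstem. TGATTNAT was in 1.66% of all, 2.81% and 2.80%. At 8-fold or more, CAGATG was in 11.4% of the 149 genes with a promoter higher in hippocampus and 17.1% of the 105 higher in brainstem, and TGATTNAT in 3.36% and 6.67%. The matches are letters in a window and say nothing of whether a factor binds there. The median GC content of these windows was 60.4% over all tested genes, 62.4% over those higher in hippocampus and 59.2% over those higher in brainstem.

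Glutamatergic neurons of the 2 regions load their vesicles with different transporters. Slc17a7 (VGLUT1, ENSMUSG00000070570) had 1123 to 1428 CPM in the hippocampus libraries (median 1252) against 81.7, 79.5, 34.7, 62 and 55.2 CPM in brainstem, higher in hippocampus (log2 fold change 4.32 ± 0.197, adjusted p = 1.96e-10). Slc17a6 (VGLUT2, ENSMUSG00000030500) had 5.52 to 11.5 CPM in the hippocampus libraries (median 9.85) against 219.6, 212, 228, 253 and 240.2 CPM, 24.7-fold higher in brainstem (log2 fold change -4.63 ± 0.126, adjusted p = 4.46e-15). Neither gene's values overlapped between regions. Slc17a8 (VGLUT3), used by scattered neurons of several transmitters, was low in both at 5.47 against 3.55 CPM (0.62).

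The neuronal glycine transporter and the adult glycine receptor subunit were near absent from hippocampus. Slc6a5 (ENSMUSG00000039728), which returns glycine to the terminals of glycinergic neurons, had 426, 392, 339, 450.2 and 409 CPM in brainstem and 0 to 0.518 CPM in hippocampus, the most negative log2 fold change of all tested genes (log2 fold change -11.48 ± 0.216, adjusted p = 5.95e-17). Glra1, the adult glycine receptor subunit, followed with 33.1, 20.5, 19.9, 35.1 and 30.4 CPM against at most 0.205 CPM (-8.65). Slc6a9, the glial glycine transporter, was at 15.2 against 84.5 CPM, and Glrb, the receptor's beta subunit, at 195 against 433 CPM (-1.15). The glycine-cleaving enzyme Gldc ran against them, at 49.2 against 3.37 CPM (3.87). GABA synthesis was divided. Gad1 was higher in hippocampus (331 against 222 CPM, 0.58), while Gad2 and the shared vesicular transporter Slc32a1 were higher in brainstem (156 against 204 CPM, -0.39, and 43.2 against 87.5 CPM, -1.02). Gad2 was not called without brainstem replicates 1 and 7 together (-0.28). Of 12 members of the list that reached the minimum in both regions, 1 was higher in hippocampus and 7 in brainstem, with a median of -0.66.

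Genes of acetylcholine release, used by cranial motor neurons, were near absent from hippocampus, whose cholinergic input comes from cell bodies elsewhere. Chat, the synthetic enzyme, had 18.7, 18.1, 11.8, 25 and 18.4 CPM in brainstem and 3 reads over the 6 hippocampus libraries, a ratio of 515 (95% exact interval 176 to 2500). Slc18a3, its vesicular transporter, had 15.5, 14.4, 7.57, 15.1 and 16 CPM against 2 reads. Slc5a7, the choline transporter, was at 0.465 against 91.3 CPM, and Prph, the intermediate filament peripherin of motor neurons, at 0.72 against 31.4 CPM. Receptors split by subtype. Chrm1 and Chrm3, muscarinic receptors coupled to Gq, were higher in hippocampus (230.5 against 1.51 CPM, 7.25, and 63.8 against 13.9 CPM, 2.20), whereas Chrm2 was higher in brainstem (6.97 against 59 CPM, -3.08). Chrna7 was higher in hippocampus (1.40) and Chrna4 in brainstem (-1.59). Of 7 members of the list measured in both regions, 3 were higher in hippocampus and 3 in brainstem.

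Monoamine neurons were recognizable in brainstem. Tph2, the neuronal enzyme of serotonin synthesis, had 15, 31, 20.2, 28.3 and 28.6 CPM against 0.69 to 1.56 CPM in the hippocampus libraries (median 1.14). Slc6a4, the serotonin transporter, was at 0.109 against 11.1 CPM. Noradrenergic genes spread widely among brainstem libraries. Slc6a2, the noradrenaline transporter, had 40.1, 17.1, 6.65, 13.1 and 6.16 CPM and Dbh, which makes noradrenaline, 26.6, 12.8, 8.42, 11.8 and 8.24 CPM, both highest in replicate 1. The order of libraries in Slc6a2 was nearly the reverse of that in Hoxb8, where replicates 1 and 4 were lowest. Slc18a2, the vesicular monoamine transporter, was at 6.46 against 35.7 CPM and Maoa at 37.3 against 75.3 CPM (-1.01). Of 5 members of the list measured in both regions, 3 were higher in brainstem and 0 in hippocampus.

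**Figure D2:**
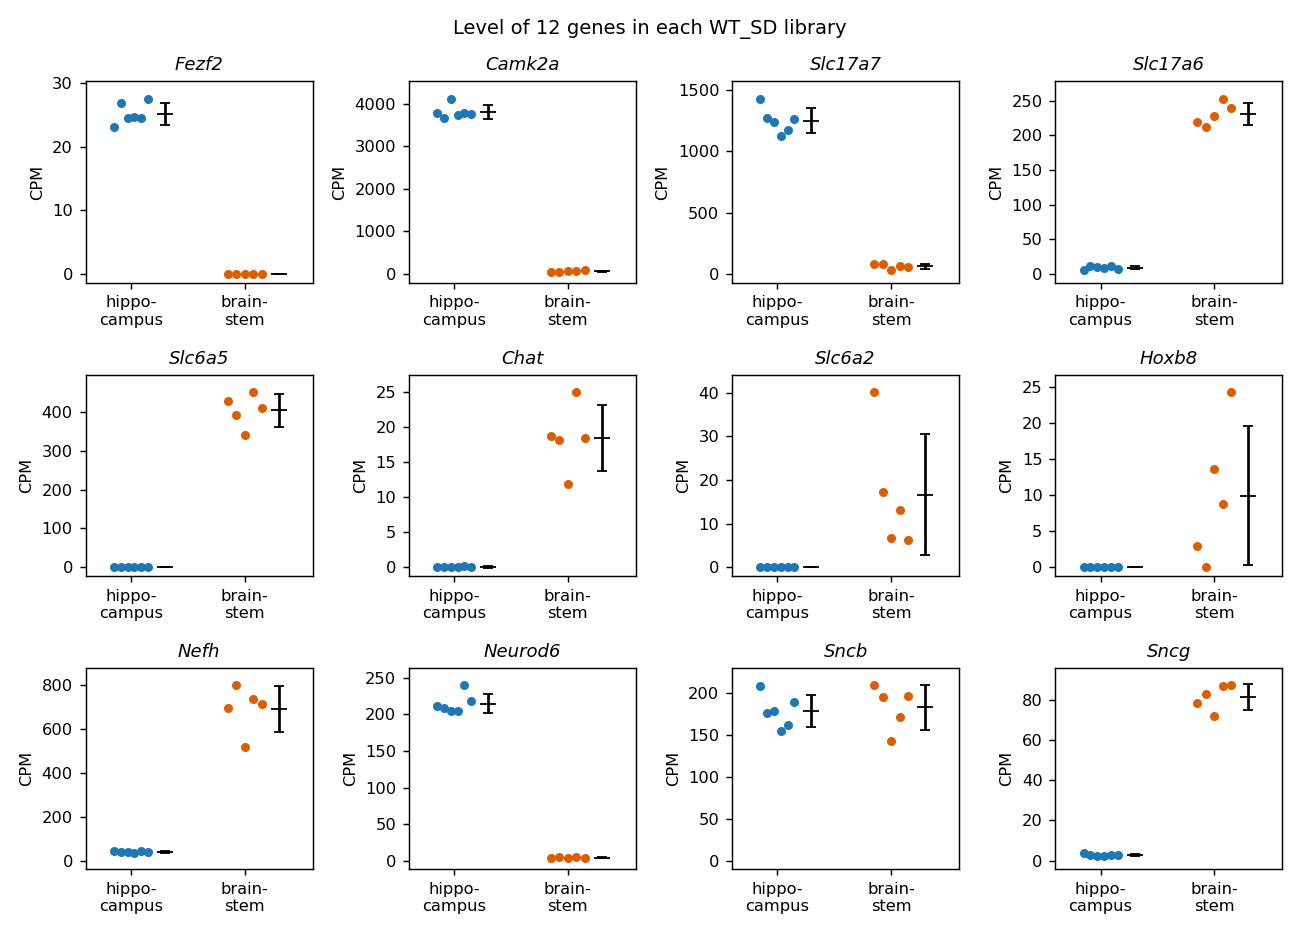
CPM of 12 genes in each of the 6 hippocampus (blue) and 5 brainstem (orange) WT_SD libraries, in order of replicate number from left to right, with mean and SD in black. Fezf2, Camk2a, Slc17a7 and Neurod6 are high in every hippocampus library, and Slc17a6, Slc6a5, Chat, Nefh and Sncg in every brainstem library. Sncb overlaps, and Slc6a2 and Hoxb8 spread widely within brainstem.

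Genes of the excitatory postsynapse were higher in hippocampus without exception among those listed. Of 31 tested, 28 were measured in both regions, and all 28 were at least 2-fold higher, with a median of 2.47. Over all tested genes that share was 10.1%. With only genes that reached the minimum in both regions tested, it was 1061 of 12670. Camk2a (ENSMUSG00000024617), the kinase that makes up much of the postsynaptic density, had 3654 to 4110 CPM in the hippocampus libraries (median 3765) against 59, 43.8, 70.1, 69.7 and 88.8 CPM in brainstem (log2 fold change 5.84 ± 0.15, adjusted p = 3.27e-15). Ddn, dendrin of dendrites and spines, had 1762 to 2025 CPM in the hippocampus libraries (median 1832) against 1.76, 0.898, 1.27, 1.35 and 1.8 CPM, a 1313-fold difference. Nrgn, which binds calmodulin in spines, had 538 to 726 CPM in the hippocampus libraries (median 716) against 4.78, 3.51, 4.6, 5.99 and 8.58 CPM (6.92). The smallest differences of the list were those of the scaffold genes Dlg2 (356 against 159 CPM, 1.17) and Lrrtm2 (62.7 against 27.7 CPM, 1.18). Summed over the list, libraries held 16290 to 17710 CPM in hippocampus and 2007 to 2357 in brainstem. In bulk tissue, fewer cells of a type and less RNA per cell cannot be told apart, here and in the groups that follow.

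Glutamate receptor subunits were mostly but not all higher in hippocampus. Of 23 that reached the minimum in both regions, 16 were higher in hippocampus and 6 in brainstem, with a median of 0.61. The AMPA subunits Gria1 and Gria2 were at 1102 against 159 CPM (2.79) and 690.2 against 127 CPM (2.44), while Gria4, which speeds AMPA receptors, was higher in brainstem (58.9 against 189 CPM, -1.69). NMDA subunits showed the same split, with Grin2b at 530.2 against 35.7 CPM (3.90) and Grin2d at 6.35 against 13.4 CPM (-1.08). Among 11 GABA-A receptor subunits measured in both regions, 8 were higher in hippocampus and 2 in brainstem. Gabra5 and Gabra4, subunits of extrasynaptic receptors in hippocampal pyramidal and granule cells, were at 235 against 54.5 CPM (2.10) and 138 against 22.2 CPM (2.63). Gabra3 was higher in brainstem (78.3 against 136 CPM, -0.80), and so was Gabrq, with 19.2, 17.3, 14.4, 19 and 19.4 CPM against at most 0.875 CPM in hippocampus.

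Immediate early genes, which neurons switch on with activity, were mostly higher in hippocampus. Of 12 that reached the minimum in both regions, 11 were higher there and 1 in brainstem. Egr1 was at 64 against 15 CPM (2.10), Arc at 54.9 against 21.4 CPM (1.36), Nr4a1 at 30.7 against 4.84 CPM (2.68) and Bdnf, whose product is a neurotrophin, at 44.6 against 7.24 CPM (2.61). Fos, the gene most often used as a sign of recent activity, ran against them. It had 6.73, 10.1, 5.94, 6.33 and 5.19 CPM in brainstem against 2.19 to 3.99 CPM in the hippocampus libraries (median 2.89), 2.25-fold higher in brainstem with no overlap (log2 fold change -1.17 ± 0.193, adjusted p = 3.52e-05). Dusp1, a phosphatase induced by stress and activity, was also higher in brainstem (7.96 against 10.4 CPM, log2 fold change -0.38 ± 0.145, adjusted p = 0.0263), by an amount at the edge of the test. It was not called without brainstem replicate 4 (-0.26) or 7 (-0.37), nor without hippocampus replicate 5 (-0.36) or 6 (-0.32).

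At the presynapse the regions used different members of the same families. Syt1, the calcium sensor of most forebrain synapses, was at 1553 against 247 CPM (2.65), and Syt2, the sensor of fast hindbrain synapses, had 602, 572, 409, 620.5 and 590.5 CPM in brainstem against 17.1 to 30.2 CPM in the hippocampus libraries (median 20.9) (log2 fold change -4.69 ± 0.14, adjusted p = 2.32e-14). The vesicle SNARE genes Vamp2 and Vamp1 split likewise at 907 against 334 CPM (1.44) and, towards brainstem, 1146 CPM there (-3.47), as did the complexins Cplx2 (1403 against 243 CPM, 2.53) and Cplx1 (446 against 993 CPM, -1.16) and the vesicle proteins Sv2b (1.70) and Sv2c (-3.33). Sv2a, which nearly all synapses carry, lay just under the fold threshold (397 against 488 CPM, log2 fold change -0.30 ± 0.0841, adjusted p = 0.00457) and passed it without brainstem replicate 6 (-0.39). Of 30 members, all measured in both regions, 16 were higher in hippocampus and 11 in brainstem, so the list as a whole leaned only weakly to hippocampus, with a median of 0.49.

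Ion channel subunits were divided in the same way. Channels of fast-spiking neurons were among those higher in brainstem, such as Scn4b, the sodium channel subunit of resurgent current, at 20.1 against 462 CPM (log2 fold change -4.52 ± 0.126, adjusted p = 6.56e-15), Scn1a at 108 against 362 CPM (-1.75) and Kcna2 of the juxtaparanode at 169 against 403 CPM (-1.25). Higher in hippocampus were Scn2a (324 against 79.8 CPM, 2.02), Scn3b (289.8 against 39.3 CPM, 2.88), Kcnip2, a subunit of A-type potassium channels (152 against 5.35 CPM, 4.80), and Kcnh3, with 62.1 to 76.6 CPM in the hippocampus libraries (median 73.9) against 0.386 CPM. Hcn2, a channel of pacemaking, was higher in brainstem (73.8 against 225 CPM, -1.61). Of 38 subunits measured in both regions, 20 were higher in hippocampus and 12 in brainstem. Of 15 neuronal calcium-binding protein genes, 7 were higher in hippocampus, such as Hpca of pyramidal cells at 1240 against 54.4 CPM (4.51), and 8 in brainstem, such as Pvalb of fast-spiking neurons at 25 against 192 CPM (-2.94).

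**Figure D3:**
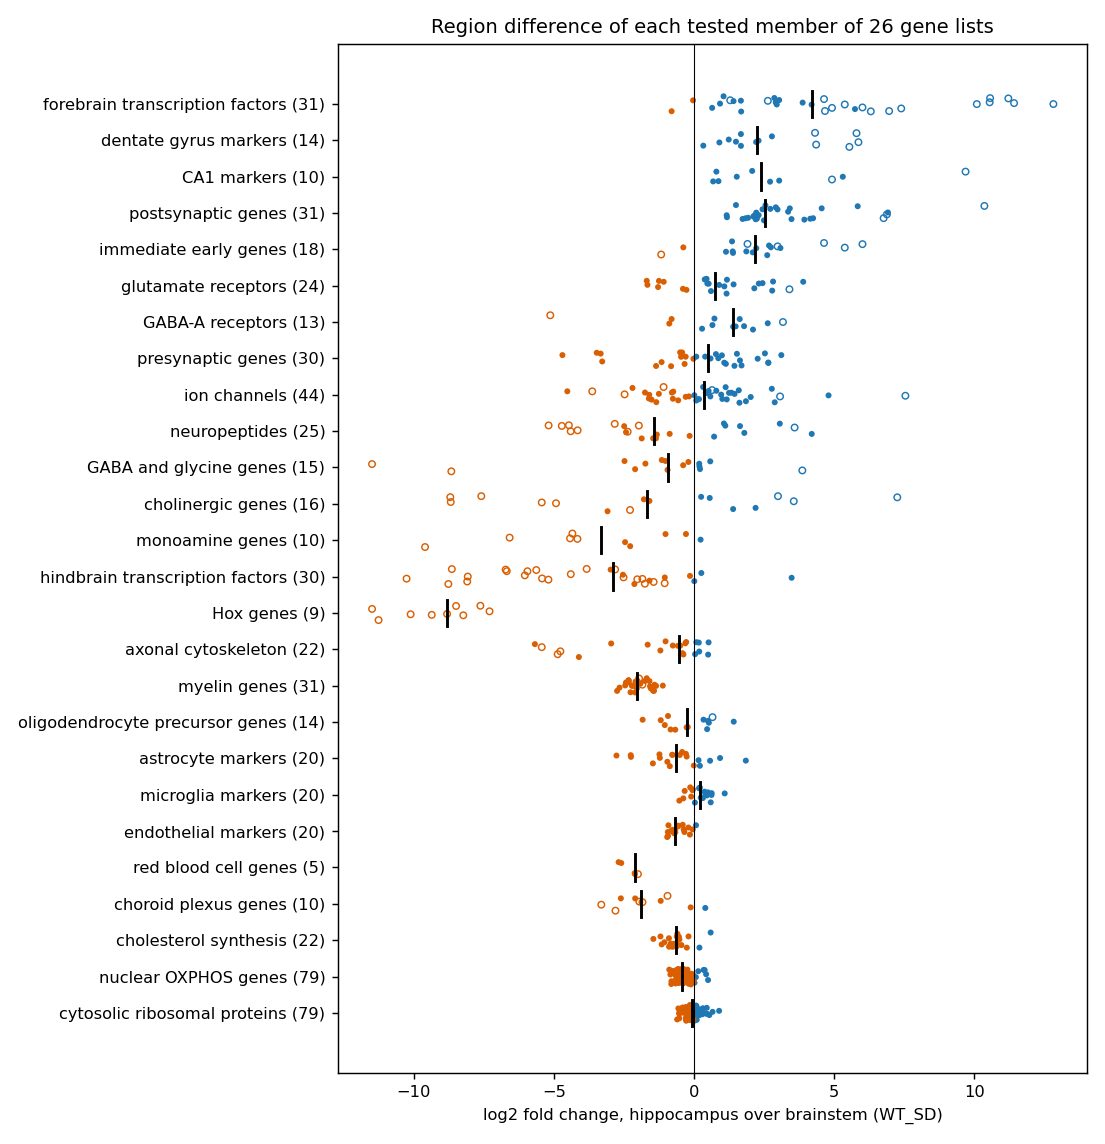
Log2 fold change (hippocampus over brainstem) of each tested member of 26 gene lists, with the number tested in brackets and the median as a black bar. Filled points reached the count minimum in both regions and open points in only 1, blue is higher in hippocampus and orange higher in brainstem, whether or not the test was passed. Postsynaptic genes lie wholly to the right and myelin and Hox genes wholly to the left, while presynaptic and ion channel genes spread to both sides.

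The label of hippocampus was checked against markers of its subfields. Of 9 dentate gyrus markers measured in both regions 9 were higher in hippocampus, and of 8 CA1 markers 8. Of 6 CA2 markers 4 were higher in hippocampus and 1 in brainstem, and of 9 CA3 markers 7 and 1. Prox1, which keeps granule cell identity, had 107 ± 12.3 against 33.5 ± 2.29 CPM, and Dsp and Lct, granule cell markers, were at 54.8 against 0.98 CPM and 53.3 against 1.11 CPM. Fibcd1 and Mpped1, markers of CA1, were at 173 against 4.48 CPM and 214 against 32.5 CPM. For CA2, Rgs14 was at 109 against 0.519 CPM, but Pcp4, which many brainstem neurons also make, was higher in brainstem (26.6 against 46.7 CPM, -0.81). For CA3, Cpne7 was at 172 against 4.82 CPM and Bok at 50.3 against 6.92 CPM, and Elavl2 was higher in brainstem (75.5 against 119 CPM, -0.65). Among hippocampus libraries the summed dentate markers ranged from 977.8 to 1217 CPM and the summed CA1 markers from 694.9 to 798.8, so that libraries differed by less than the regions did (310.2 to 365.7 and 142.7 to 168.8 CPM in brainstem).

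Genes of large axons were higher in brainstem. The neurofilament genes Nefh, Nefm and Nefl were at 40.1 against 690.4 CPM, 122 against 949.6 CPM and 345 against 1085 CPM, with log2 fold changes of -4.11, -2.95 and -1.65. Nefh had 696, 796, 516, 735 and 709.8 CPM in brainstem and 33.8 to 45.2 CPM in the hippocampus libraries (median 40.9). Spp1, whose product osteopontin is secreted and not part of the axonal cytoskeleton, had 187, 246, 179, 212 and 177 CPM against 2.04 to 7.13 CPM in the hippocampus libraries (median 3.79) (log2 fold change -5.67 ± 0.199, adjusted p = 2.37e-12). Map2 of dendrites and Kif5a, an axonal motor, were slightly higher in hippocampus (0.52 and 0.51), Tubb3 was higher in brainstem (188 against 431 CPM, -1.20), and Mapt, tau, was below the fold threshold (381 against 338 CPM, 0.17). Of 19 members measured in both regions, 2 were higher in hippocampus and 12 in brainstem.

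Beta- and gamma-synuclein, small proteins of nerve terminals, had different patterns. Sncb, beta-synuclein, had 155 to 208 CPM in the hippocampus libraries (median 177) against 209.6, 196, 143, 172 and 197 CPM, and the values overlapped throughout (log2 fold change -0.04 ± 0.0937, adjusted p = 0.728). Sncg, gamma-synuclein, which motor and sensory neurons make, had 78.5, 82.8, 71.8, 86.5 and 87 CPM against 2.09 to 3.76 CPM in the hippocampus libraries (median 2.81), 29.1-fold higher in brainstem (log2 fold change -4.86 ± 0.103, adjusted p = 1.17e-16). Thy1, whose promoter drives the transgene of the TG groups, was at 579 ± 23.4 CPM in hippocampus and 539.9 ± 35.2 in brainstem, and was not called (log2 fold change 0.10 ± 0.056, adjusted p = 0.117). Among 13 homologs of familial Parkinson disease genes, 3 were higher in hippocampus, 4 in brainstem and 6 were not called. Fbxo7 and Pink1 were higher in brainstem (34.6 against 75.6 CPM, -1.13, and 283 against 425 CPM, -0.59), Synj1 and Dnajc6 of vesicle recycling were higher in hippocampus (0.73 and 0.56), and Park7 (88.6 against 98.2 CPM) was among those not called.

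Neuropeptides and their makers divided by cell group. Cck, made by hippocampal basket cells and pyramidal cells, was at 132 against 7.08 CPM (4.20), Npy at 40.8 against 4.84 CPM (3.06) and Sst at 141 against 40.6 CPM (1.80), the last 2 being markers of hippocampal interneurons. Penk, an opioid precursor, was higher in brainstem (24 against 128 CPM, -2.42), and so were Calca, the CGRP gene of motor neurons, with 16.3, 24.2, 17.2, 17.8 and 20.1 CPM against at most 1.42 CPM, and Trh and Gal (5.41 and 5.48 CPM against 0.201 and 0.243). Of 16 measured in both regions, 7 were higher in hippocampus and 8 in brainstem. Ntf3, a neurotrophin of the dentate gyrus, was at 6.87 against 0.359 CPM, and Ret, a receptor of the GDNF family in motor neurons, at 2.46 against 74.6 CPM. Genes of adult neurogenesis gave no common direction. Dcx, of newborn neurons, was not called (11.1 against 9.71 CPM, log2 fold change 0.20 ± 0.122, adjusted p = 0.144), Neurod1 was at 17.1 against 2.82 CPM and Calb2, which adult brainstem neurons also make, was higher in brainstem (32.2 against 128 CPM, -1.99).

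Myelin was the clearest glial difference. Of 31 myelin genes tested, 29 were measured in both regions, and all 29 were at least 2-fold higher in brainstem. Their median was -2.04, with no overlap of the libraries. Over all tested genes the share at 2-fold was 9.85%. With only genes that reached the minimum in both regions tested, it was 892 of 12670. Mbp, a main protein of central myelin, had 6470, 7799, 6985, 6492 and 7580 CPM in brainstem against 1411 to 2003 CPM in the hippocampus libraries (median 1770). Summed over the list, brainstem libraries held 20570 to 24410 CPM and hippocampus libraries 4380 to 6401. Genes of oligodendrocyte precursors did not share this difference. Pdgfra, which defines these cells, was slightly higher in hippocampus (59 against 46.5 CPM, 0.34) and was not called without brainstem replicate 1 (0.27) or with the replicate number as a block (0.265), Olig2, of the whole lineage, was higher in brainstem (15 against 30.8 CPM, -1.04), and of 13 members measured in both regions 5 were higher in hippocampus and 6 in brainstem. Of 10 genes of Schwann cells, which myelinate peripheral nerve, 2 reached the minimum, Pmp22 (20.6 against 89.6 CPM) and Mlip (22.7 against 2.2 CPM), and both are also made by other cells.

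Astrocyte genes leaned to brainstem, with members that ran the other way. Gfap, the astrocyte intermediate filament, had 314 to 417 CPM in the hippocampus libraries (median 344) against 245, 298, 350.1, 280.5 and 419 CPM in brainstem and was not called (log2 fold change 0.16 ± 0.119, adjusted p = 0.227). The glutamate transporters Slc1a2 and Slc1a3 were higher in hippocampus (2949 against 1548 CPM, 0.93, and 794 against 220.3 CPM, 1.85), while S100b (133 against 632 CPM, -2.25), Agt (18.3 against 87.3 CPM, -2.26), the water channel Aqp4 (161 against 378 CPM, -1.23) and the potassium channel Kcnj10 (169.9 against 744 CPM, -2.13) were higher in brainstem. Of 20 astrocyte markers, among which Kcnj10 is not counted, 3 were higher in hippocampus, 12 in brainstem and 5 were not called, with a median of -0.64. The summed CPM of these markers overlapped between the regions, at 5872 to 6893 in hippocampus libraries and 6161 to 6933 in brainstem libraries. Microglia genes differed little. Csf1r and P2ry12 were higher in hippocampus (0.60 and 0.63), Ctss was higher in brainstem (-0.52), and of 20 markers 9 were higher in hippocampus, 3 in brainstem and 8 not called, with a median of 0.23.

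Most endothelial markers were higher in brainstem by a small margin. Of 20, 16 were higher in brainstem, 0 in hippocampus and 4 were not called. Their log2 fold changes ran from -0.96 to 0.07, with a median of -0.67 and none at 2-fold. Slc2a1, the glucose transporter of the blood-brain barrier, was at 72.2 against 118 CPM (-0.70) and Pecam1 at 17.6 against 28.4 CPM (-0.69), while Cldn5 of tight junctions was not called (20.3 against 21 CPM), except with an offset for GC content, which put it higher in brainstem (-0.36). Haemoglobin transcripts were also higher in brainstem, with Hbb-bs at 632, 359.9, 1309, 278 and 448 CPM in brainstem against 54.2 to 199.6 CPM in the hippocampus libraries (median 84.1). Hba-a1 and Hba-a2 are near-identical, and so are Hbb-bs and Hbb-bt, and how their reads were divided is not stated. Summed over the list, red blood cell genes reached 823.9 to 3367 CPM in brainstem, highest in replicate 6, and 169.6 to 577.0 in hippocampus. The part of blood left in the tissue in the endothelial counts was not tested.

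Choroid plexus, the epithelium that makes cerebrospinal fluid and borders both regions, was carried into some libraries. Ttr, its most abundant transcript, had 1489, 24.8, 15.4, 1384 and 41.8 CPM in brainstem and 25.9 to 276 CPM in the hippocampus libraries (median 45.6), so that brainstem replicates 1 and 7 stood far above the other 3, and the region difference was not called (log2 fold change -2.61 ± 1.32, adjusted p = 0.104). Without those 2 libraries its log2 fold change was 1.82 (adjusted p = 0.132). Summed choroid plexus genes reached 2815 and 2751 CPM in those 2 libraries, 556.5 to 591.5 in the other 3 brainstem libraries and 217.0 to 603.2 in hippocampus. The sum includes Enpp2 (181 against 776 CPM), which oligodendrocytes make too. Without the 2 libraries 8540 genes were called between the regions, 4144 higher in hippocampus and 4396 in brainstem. Meningeal fibroblast genes summed to 598.8 to 823.1 CPM in brainstem and 276.3 to 695.2 in hippocampus, the latter highest in replicate 3, and of 12 measured in both regions 4 were higher in hippocampus and 5 in brainstem. Of 20 genes of ependymal cells and motile cilia, 2 reached the minimum, and Foxj1, which switches on motile cilia, was higher in brainstem (4.67 against 13.1 CPM, -1.47).

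**Figure D4:**
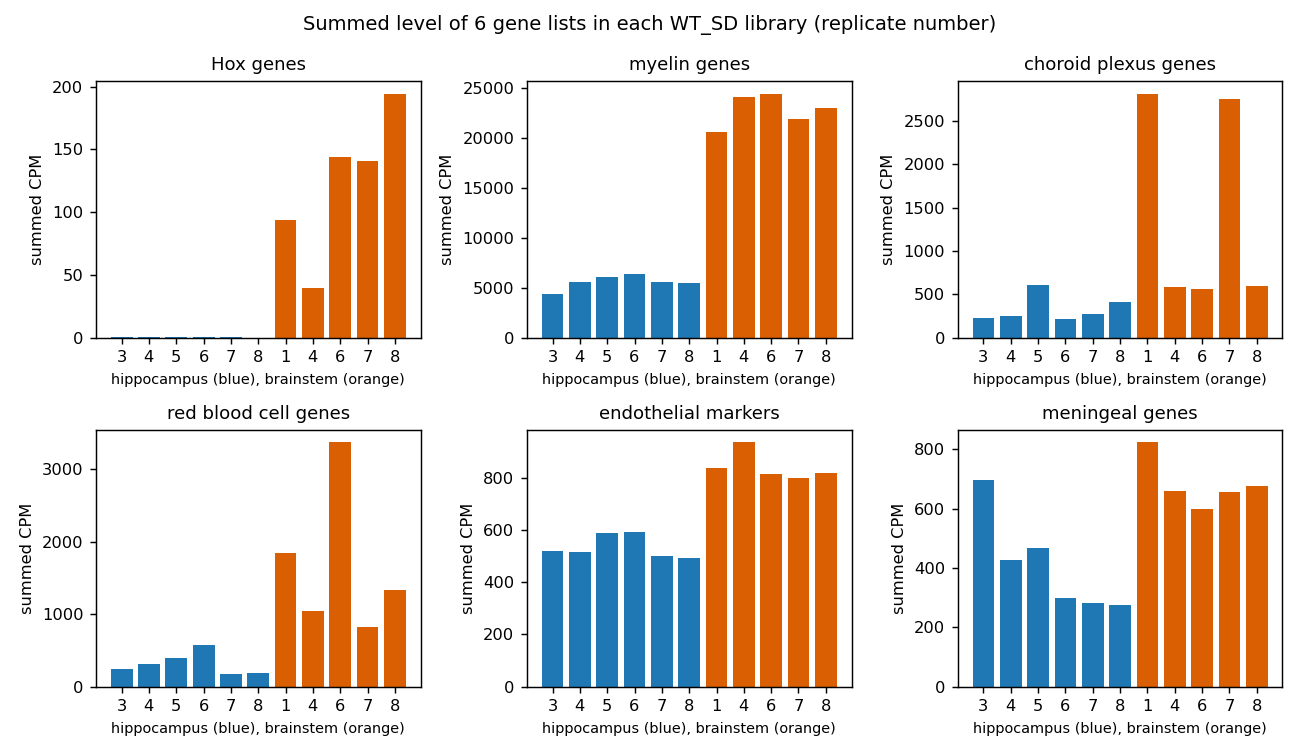
Summed CPM of 6 gene lists in each WT_SD library, with hippocampus replicates in blue and brainstem replicates in orange and replicate numbers below the bars. Hox and myelin genes part the regions in every library, choroid plexus genes stand out in brainstem replicates 1 and 7, and red blood cell genes are highest in brainstem replicate 6.

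Markers of neighbouring brain parts were looked up to see what the dissections held. Of 18 cerebellar genes, Cbln3, made by granule cells, had 12.3, 16.1, 6.37, 3.7 and 2.08 CPM in brainstem against at most 0.672 CPM in hippocampus, highest in replicates 1 and 4 and lowest in replicate 8. Gabra6, the other defining gene of cerebellar granule cells, had 186 reads over the 5 brainstem and 6 over the 6 hippocampus libraries and did not reach the minimum. Zic1, which hindbrain neurons also express, had 43.3, 30.1, 24.7, 32.1 and 28.9 CPM in brainstem and 7.24 CPM in hippocampus. Of 7 cerebellar genes measured in both regions, 4 were higher in hippocampus and 2 in brainstem, with a median of 0.65. Among cortical layer genes, Lamp5 was higher in brainstem (35 against 267 CPM, -2.93) and Hs3st4 higher in hippocampus (96 against 17.5 CPM, 2.46). Of 9 such genes measured in both regions, 4 were higher in hippocampus and 3 in brainstem. Fezf2 and Tbr1, described above as absent or near absent from brainstem, belong to the same list. Of 9 thalamus and habenula genes measured in both regions, 2 were higher in hippocampus and 5 in brainstem. The part of adjoining tissue in the region difference was not tested.

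Among genes of energy metabolism, nuclear genes of the respiratory complexes leaned to brainstem by small amounts. Of 79 nuclear genes of the respiratory complexes, all measured in both regions, 51 were higher in brainstem and 4 in hippocampus, with a median of -0.42 and none at 2-fold. The 13 protein-coding genes of the mitochondrial genome had a median of -0.30, and 6 of them, such as mt-Nd1 (5739 against 7758 CPM, -0.43), were higher in brainstem. With an offset for GC content their median was -0.08, none of the 13 was called and mt-Nd1 was at -0.23, and without brainstem replicate 4 the count was 3. Under all alternatives between 0 and 10 of the 13 were called higher in brainstem, and between 41 and 61 of the 79. Of 79 cytosolic ribosomal protein genes, 8 were higher in hippocampus and 10 in brainstem, with a median of -0.06. These counts were 8 and 18 without brainstem replicate 1, 5 and 15 without replicate 7, 5 and 23 without both, and 6 and 21 with the replicate number as a block. Proteasome subunits had 12 of 35 higher in brainstem and 0 in hippocampus. Cholesterol synthesis, on which myelin depends, had 18 of 22 genes higher in brainstem and 1, Srebf2, in hippocampus (184 against 122 CPM, 0.59), with Insig1 (60.3 against 165 CPM, -1.45) and Idi1 (52 against 116 CPM, -1.15) among the former. Glycolysis divided by isoform, and of 21 genes measured in both regions 7 were higher in hippocampus and 7 in brainstem. Aldoc of astrocytes and Ldhb were higher in brainstem (737 against 1714 CPM, -1.22, and 341 against 809.5 CPM, -1.25), and Aldoa, Ldha and Pfkl were higher in hippocampus (0.55, 1.41 and 1.65).

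By difference of mean CPM, a ranking that favours abundant transcripts, the leading genes were mostly members of these groups. Towards hippocampus they were led by Camk2a and included Ppp3ca, a calcineurin subunit (1974 against 363 CPM), Cpe, which processes neuropeptides (2540 against 985 CPM), and Ptk2b, a calcium-activated tyrosine kinase, which had 838 to 1025 CPM in the hippocampus libraries (median 955) against 5.86, 6.13, 5.38, 5.86 and 5.75 CPM. Towards brainstem they were led by Mbp and included Trf, transferrin of oligodendrocytes (235 against 1288 CPM), and Sparc, a matrix protein of glia and vessels (296 against 1245 CPM). Slc26a6, an anion exchanger that belonged to no list, had 1333, 1856, 1804, 1107 and 1163 CPM in brainstem and 4.08 to 6.06 CPM in the hippocampus libraries (median 5.79) (log2 fold change -8.07 ± 0.177, adjusted p = 2.24e-15). Brainstem replicates 4 and 6 were above 1, 7 and 8, and all lay far above every hippocampus library.

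The same contrast was then made in the other 3 groups, which share no library with the first. Hippocampus and brainstem differed in 4272 and 4496 genes in WT_HFD (30.5% and 32.1% of those tested, higher in hippocampus and in brainstem), 4323 and 4312 in TG_SD (30.8% and 30.7%) and 4048 and 4250 in TG_HFD (28.9% and 30.3%). Of the 8464 genes that differed in WT_SD, 7886 (93.2%) differed in the same direction in WT_HFD, 7820 (92.4%) in TG_SD and 7664 (90.5%) in TG_HFD, and 7207 (85.1%) in all 3. At 2-fold or more in WT_SD, 2794 of 2800 did so. Fold changes of the genes above were close in these groups, with -4.76, -4.75 and -4.95 for Sncg, 4.01, 4.45 and 4.35 for Slc17a7, -3.95, -3.89 and -3.98 for Nefh and -1.21, -1.51 and -1.62 for Fos in WT_HFD, TG_SD and TG_HFD.

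Whether the region difference itself varied among the 4 groups was tested on all 47 libraries, with the 3 region-by-group terms together. This was so for 3 of 14024 genes (0.0214%) at an adjusted p of at most 0.05. Serpina3n, an acute-phase protease inhibitor of reactive astrocytes, was higher in hippocampus in WT_SD (71.7 against 41.2 CPM) with a log2 fold change of 0.80, which was 0.80, 0.45 and 0.07 in the other groups (edgeR adjusted p of the difference 0.00598). On the scale of the 47 libraries its mean in hippocampus was 71.8 ± 7.32 CPM in WT_SD, 68.4 ± 8.16 in WT_HFD, 53.9 ± 5.02 in TG_SD and 51.1 ± 2.97 in TG_HFD, and in brainstem it lay between 39.5 ± 2.78 (WT_HFD) and 48.3 ± 8.40 (TG_HFD). Cntn3, a contactin of neuronal membranes, was 0.65 in WT_SD and 0.77, 0.10 and 0.25 in the other groups (adjusted p 0.0308), with 19.7 ± 0.883 CPM in hippocampus and 12.6 ± 1.94 in brainstem of WT_SD against 9.95 ± 1.36 and 9.32 ± 0.664 in TG_SD. The third was mt-Tp, a mitochondrial tRNA gene of low count, with 4.17 ± 1.12 CPM in hippocampus and 4.78 ± 0.255 in brainstem of WT_SD and 5.56 ± 0.868 and 1.76 ± 0.313 in TG_SD (adjusted p 0.00598). Which groups differ from which was not tested. The gene next in order was far from the threshold (adjusted p 0.974).

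**Figure D5:**
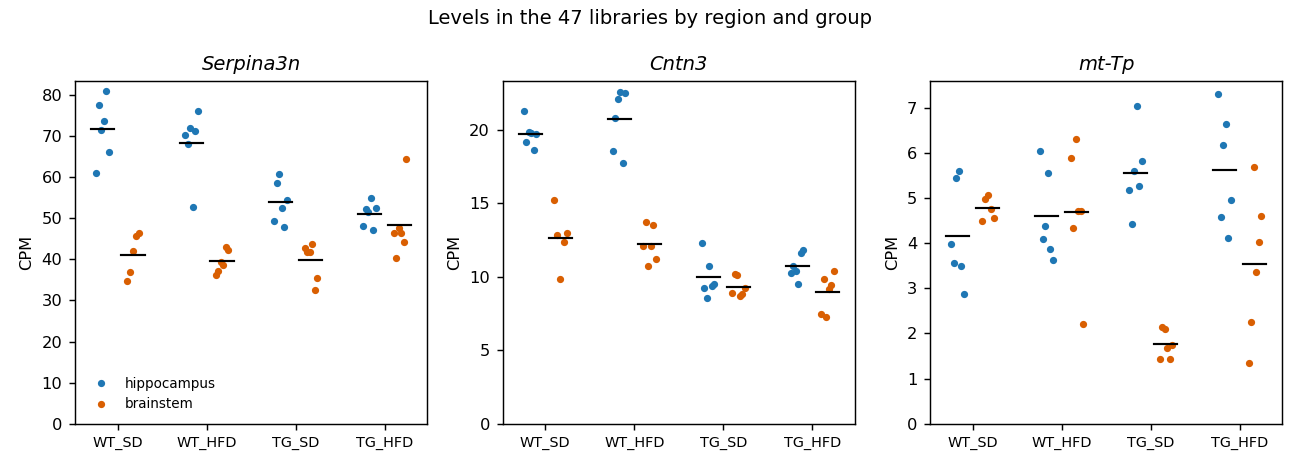
CPM of Serpina3n, Cntn3 and mt-Tp in each of the 47 libraries by group, with hippocampus in blue, brainstem in orange and means as black bars. The gap between regions seen for Serpina3n and Cntn3 in both WT groups is narrower in both TG groups, and mt-Tp is lowest in brainstem of TG_SD.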

How the data were processed

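RNA of hippocampus and medulla was sequenced by the authors from poly(A) libraries as single reads of 75 bases. The submitters' processing notes name FastQC 0.11.9, STAR 2.7.9a and DESeq2 1.32.0, with reads aligned to the mouse genome plus the human transgene. The program that counted reads and its use of strand are not given in the sources used here. The authors deposited raw counts per gene in 1 table for each region and left out a WT_SD brainstem sample of low RNA quality.

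The tables were joined by gene identifier (33139 and 31751 genes, 35032 in all, a gene unlisted in one table set to 0 there), and symbols were found for 34400. Counts of the 11 WT_SD libraries were normalized together by TMM, genes averaging 50 counts or more in either region were kept, and region was tested with edgeR 4.0.16 (quasi-likelihood, R 4.3.3) with Benjamini-Hochberg adjustment over 14024 genes. A gene was called where the adjusted p did not exceed 0.05 and the log2 fold change was 0.3 or more in either direction. The other groups were fitted alike, and the region-by-group terms were tested on 47 libraries. The code was tested on simulated data. Where a region held 0 reads, folds are given against 3 reads over the region, and 1 to 3 reads get a ratio with a 95% exact interval. Intervals and floors cover counting error only. Replicates are separate samples per the labels. Named genes were the 15 largest fold changes and the 15 largest differences of mean CPM in each direction, up to 6 members by level, up to 3 exceptions and the defining members of each gene list, 2 synucleins and Thy1, and the genes whose region difference varied among groups. Further list members in the text were chosen after their values were seen. The members and lists were chosen with earlier results of these data known. Alternatives covered the test (DESeq2 1.42.0), scaling, filters, thresholds, surrogate variables (sva 3.50.0), a replicate block, GC and length offsets, libraries left out, and brainstem replicates 1 and 7 left out together, which was added after seeing the data. Promoter sequences are from RefSeq (GRCm38.p6). Coordinates of other genes were not used here, since the annotation at hand is of another release than the alignment. Some genes covered by these rules are not reported here.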

Additional observations from a re-analysis of the deposited data

Results flagged for a closer look

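For 28 of the 342 sets of values checked (171 genes of the text, each in the 6 hippocampus and the 5 brainstem libraries of WT_SD), 1 library lay apart from the others by Dixon's test at 95%, which chance does for about 1 in 20 groups. Brainstem replicate 6 was that library for 13 genes. Its CPM was lower than in the other brainstem libraries for Cplx1 (825 against 1020 to 1050), Scn4b (380.0 against 466 to 500.0), Syt2 (409 against 572 to 620.0), Sv2a (364 against 496 to 531), Slc6a9 (72.5 against 85.9 to 89.8), Slc18a3 (7.57 against 14.4 to 16.0), Thy1 (478 against 546 to 561) and Id2 (58.5 against 71.9 to 77.2). It was higher for Slc1a3 (296 against 197 to 212), Sparc (1680 against 1070 to 1240), Idi1 (151 against at most 110.0), Maoa (85.3 against 71.7 to 73.8) and Hbb-bt (1040 against 211 to 428). Summed red blood cell genes were also highest in that library, at 3367 CPM, and their part in these values was not tested. Its log2 CPM, relative to the mean of the libraries, also fell most steeply with the GC content of genes. Such slopes were mostly negative in brainstem and mostly positive in hippocampus, and their part in these values was not tested either. Without brainstem replicate 6, 8293 genes were called between the regions.

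Among the other brainstem libraries, Dbh stood out in replicate 1 (26.6 CPM against 8.24 to 12.8), and Lmx1b (9.07 against 4.25 to 5.59) and Rgs14 (0.831 against 0.39 to 0.495) in replicate 8. In hippocampus, replicate 5 was high in Camk2a (4110 CPM against 3650 to 3790), Cck (149 against 126 to 132) and Kcnj10 (185 against 165 to 168). Replicate 6 was low in Cux2 (8.53 against 13.5 or more), Kcnh3 (62.1 against 71.5 to 76.6) and Slc32a1 (35.7 against 43.1 to 46.0) and high in Gabra4 (147 against 134 to 138). Replicate 7 was high in Chrm3 (73.7 against 59.4 to 63.8), Gad1 (369 against 315 to 332), Lamp5 (41.6 against 31.5 to 34.9) and Lrrtm2 (68.4 against 59.9 to 62.8), and replicate 4 in Fibcd1 (191 against 163 to 173).

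The region difference varied among the 4 groups of mice for Serpina3n (edgeR adjusted p 0.00598), mt-Tp (0.00598) and Cntn3 (0.0308), by the test of the region-by-group terms.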

How the results depend on the processing

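Most results held when the processing was changed. The 8464 genes called between the regions became 8293 to 8586 when each of the 11 libraries was left out in turn, with 4024 to 4166 higher in hippocampus and 4210 to 4423 in brainstem, and with 1365 to 1465 and 1366 to 1401 at 2-fold or more. Counts of higher in hippocampus and in brainstem were 4182 and 4284 with DESeq2, 3869 and 4670 with library totals alone, and 3509 and 5125 with upper quartile scaling, which shifted the median log2 fold change by -0.09. The filter on low counts changed the counts at 2-fold or more: with a mean count of 50 in both regions 892 were higher in brainstem, and with no filter 2485 were higher in hippocampus and 3223 in brainstem, out of 32077 tested. The 3 genes whose region difference varied among groups were 2 to 3 when each WT_SD library was left out. Of 171 genes of the text, 158 kept direction and call under each of the 27 alternatives.

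Direction changed for 4 genes that were not called in the first place, the cause of which was not tested. Cldn5 was 0.01 without a filter, without brainstem replicate 1 or 4 and without brainstem replicates 1 and 7 together (0.013, 0.013, 0.012 and 0.012), ran from -0.142 to 0.013 when each library was left out, and was called higher in brainstem with a GC offset (-0.361, adjusted p 0.00684). Id2 was 0.021 without a filter, 0.028 with a GC offset, 0.001 with a length offset, 0.0 without brainstem replicate 4 and 0.013 without replicates 1 and 7, and ran from -0.102 to 0.0 when each library was left out. Sncb was 0.016 without a filter, 0.003 with a length offset, 0.012 without brainstem replicate 1 and 0.003 without replicates 1 and 7, and ran from -0.121 to 0.012 when each library was left out. Ttr was 1.82 without those 2 libraries, an alternative chosen after seeing the data, and was called with DESeq2 (-2.61, adjusted p 0.033).

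The same replicate numbers occur in both regions for 4 pairs (4, 6, 7 and 8). Deviations from the group means correlated at 0.021, 0.537, 0.228 and 0.131 within these pairs. The regions share mice, but no source says that a number marks a mouse, and 1 of the 4 pairs lay below 0.1, and the block was therefore not made the reported result. Of the 4 hippocampus libraries, 3 correlated best with their own number, a hint from the data and not from the design. With the replicate number as a block 8574 genes were called, 4163 higher in hippocampus and 4411 in brainstem, Pdgfra was not (0.265), and cytosolic ribosomal protein genes became 6 and 21. Depth limits genes near the minimum of 50 counts, and counts of 0 in a region allow up to 3 reads.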

Other observations

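Of 8 markers of pericytes and smooth muscle measured in both regions, 2 were higher in hippocampus and 3 in brainstem. Of 10 genes of perineuronal nets and brain matrix, 2 were higher in hippocampus and 4 in brainstem. Mitochondrial ribosomal protein genes had 27 of 76 higher in brainstem and 5 in hippocampus, with a median of -0.16. Among 7 neurotrophin and receptor genes measured in both regions, 6 were higher in hippocampus and 1 in brainstem, with a median of 0.56.

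Slc26a6 was uniform across groups apart from 1 library. On the scale of all 47 libraries it lay between 965.3 and 1971 CPM in the brainstem libraries of the 4 groups and between 3.85 and 7.77 CPM in hippocampus, except for 1 hippocampus library of TG_SD with 157.4 CPM. That library takes no part in the WT_SD comparison.

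Calls in the other 3 groups needed a log2 fold change of 0.3 or more and not 2-fold. Of the 2800 genes at 2-fold or more in WT_SD, 6 were not called in the same direction in all 3 of them. They included Neu3, Ogn, Zfp382, Ano2 and Gm29611, which were chosen after their values were seen, and a gene without a symbol. Gm29611 was high in hippocampus mainly through replicate 6, with 0.0768, 0, 0.149, 72.0, 0 and 8.57 CPM in replicates 3 to 8. In brainstem of TG_SD it reached 55.1 CPM in 1 library. Of all genes called in WT_SD, 0 were called in the opposite direction in WT_HFD, 1 in TG_SD and 1 in TG_HFD.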
